A study of Mus musculus with 24 samples.

Results

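The chemokine ligands of microglia described here were 10 genes, Ccl2, Ccl3, Ccl4, Ccl6, Ccl7, Ccl9, Ccl12, Ccl22, Cxcl10 and Cxcl16, chosen by their symbols from the 24411 genes listed in each of 3 expression tables. All 10 were listed. The tables came from bulk RNA sequencing of 24 libraries. In 1 experiment microglia, macrophages that live in the brain, were isolated from hippocampi after saline (n = 3) or recombinant mouse platelet factor 4 (PF4, n = 4), itself a chemokine, which platelets store in granules. In the other, whole hippocampi were taken after saline (n = 5), young plasma (the plasma preparation of young blood, n = 6) or its platelet fraction (n = 6). All were male C57BL/6 mice of 20 months, injected into a vein 8 times in 24 days with 100 μl. The blood donors were 3 months old, and PF4 was given at 5 μg/ml. After perfusion with saline buffer, tissue for microglia was dissociated with enzymes and by force, cleared of myelin with beads and enriched with beads against CD11b, a surface protein that border macrophages, monocytes and neutrophils also carry. The study counts its microglia replicates as mice, while the labels do not name the animals.

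Chemokines are small secreted proteins that guide leukocytes through G-protein-coupled receptors on the target cell. The CC and CXC families are named for the spacing of their first cysteines. In microglia and other macrophages, many of these genes are transcribed at a low level at rest and induced within hours by NF-κB, and Cxcl10 also by interferons. Ccl2, Ccl7 and Ccl12 are ligands of CCR2, the receptor that draws monocytes from the blood. Ccl3 and Ccl4 (macrophage inflammatory proteins 1α and 1β) attract monocytes and T cells, and Ccl3 binds CCR1. Ccl6 and Ccl9 are rodent ligands of CCR1. Ccl22 binds CCR4 on T cells, Cxcl10 binds CXCR3, and Cxcl16 is a membrane-bound ligand of CXCR6.

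Mouse chromosome 11 carries 8 of the genes (GRCm38, the assembly of mm10, GENCODE M21). Ccl2 starts at position 82035571, Ccl7 follows it after 8258 bases, and Ccl12 follows Ccl7 after 54319. Ccl9 (83572919 to 83578636), Ccl6 (83587882 to 83593087), Ccl3 (83647844 to 83649355) and Ccl4 (83662584 to 83664683) form the other cluster, with 9245, 54756 and 13228 bases between neighbours. Cxcl16 (70453983 to 70459984) stands apart on the same chromosome, Ccl22 is on chromosome 8 (94745590 to 94751699) and Cxcl10 on chromosome 5 (92346638 to 92348889). Ccl2, Ccl6, Cxcl10 and Cxcl16 each overlap 1 gene of the opposite strand, and their counts are uncertain to the extent that antisense reads were counted. Related chemokine genes can also share reads where their sequences are nearly the same.

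Promoter sequences are shown for the genes with motif matches of interest and for the pair of neighbours that share sequence. RefSeq (GRCm38.p6) gave the promoters of 6 of the 10 genes (Ccl3, Ccl6, Ccl9, Ccl12, Ccl22 and Cxcl10). Starts and distances here are those of RefSeq, which differ from the positions above for Ccl22 and Ccl3. The sequence printed for Ccl22 ends at 94745683, past the start given above (94745590). Its last bases thus lie inside the gene as placed there. The 250 bases before each start were searched on both strands for a κB site (GGGANNNNCC, the NF-κB motif), an interferon-stimulated response element (GAAANNGAAA) and an AP-1 site (TGANTCA, the Fos and Jun motif). Capitals mark the matches. Cxcl10 holds 2 κB matches (159 to 150 and 103 to 94 bases before the start), 1 interferon element (213 to 204) and 1 AP-1 match (74 to 68), all distinct. Ccl22 holds 1 κB match (131 to 122), read on the opposite strand. Ccl3, whose transcript was far more abundant than either in microglia, has none of these letters in its window and is printed beside them. Whether any of these sites acts in these cells was not tested.
Cxcl10, chr5:92348890-92349139, minus strand: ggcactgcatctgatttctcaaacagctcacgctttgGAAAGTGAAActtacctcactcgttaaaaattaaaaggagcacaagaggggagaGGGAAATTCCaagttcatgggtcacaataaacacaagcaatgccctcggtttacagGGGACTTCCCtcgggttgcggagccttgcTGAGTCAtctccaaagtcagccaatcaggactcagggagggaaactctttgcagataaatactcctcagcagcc
Ccl22, chr8:94745434-94745683, plus strand: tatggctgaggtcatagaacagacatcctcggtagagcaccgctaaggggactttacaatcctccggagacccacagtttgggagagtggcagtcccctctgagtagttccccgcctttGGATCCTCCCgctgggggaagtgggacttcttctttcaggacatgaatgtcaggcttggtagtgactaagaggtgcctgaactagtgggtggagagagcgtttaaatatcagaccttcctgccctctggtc
Ccl3, chr11:83649379-83649628, minus strand: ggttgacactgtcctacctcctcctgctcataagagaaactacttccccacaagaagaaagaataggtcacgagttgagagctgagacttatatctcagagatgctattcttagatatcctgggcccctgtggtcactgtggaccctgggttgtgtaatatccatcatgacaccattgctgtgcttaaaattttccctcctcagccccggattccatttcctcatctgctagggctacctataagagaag

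Of 32851 mouse promoters of the same length, 17.6% hold the κB letters, 2.98% the interferon element and 6.75% the AP-1 letters, so a single κB match is common. Ccl9 holds 1 AP-1 match (53 to 47 bases before the start), and Ccl6 and Ccl12 hold none of the motifs. Ccl6 and Ccl9, which are neighbours on the same strand, share runs of 8 or more bases in the last 100 before their starts. These runs cover 25 bases of Ccl6 and 19 of Ccl9, and among the other 14 pairs of the 6 promoters the most covered was 17 bases, between Ccl12 and Ccl9. Capitals mark the shared runs.
Ccl6, chr11:83593088-83593187, minus strand: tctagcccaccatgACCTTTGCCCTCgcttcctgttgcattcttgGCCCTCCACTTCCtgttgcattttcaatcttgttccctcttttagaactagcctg
Ccl9, chr11:83578637-83578736, minus strand: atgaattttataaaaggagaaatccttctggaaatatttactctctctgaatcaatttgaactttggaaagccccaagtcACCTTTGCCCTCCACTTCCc

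Counted reads per library, summed over the listed genes, ranged from 19855188 to 36342162 in microglia and from 6140510 to 10522699 in hippocampus. A set of 14 genes served as microglia markers, among them P2ry12, Tmem119, Cx3cr1 and Csf1r. Summed over these, isolated microglia held 38226 to 53733 RPM (reads of a gene per 1000000 counted reads) and hippocampi 836 to 1263. The part of other macrophages in these sums was not tested. Not all microglia libraries were alike. Saline 2, PF4-2 and PF4-4 held 205247, 526518 and 365163 summed normalized counts of 7 choroid plexus markers, against 673 to 999 in the other 4 libraries. PF4-1 held 14778 of 9 monocyte and neutrophil markers, against 743 to 6602 in the others, and PF4-4 held 177614 of 4 oligodendrocyte markers, against 1181 to 28626. The T cell genes Cd3e, Cd3d, Cd3g and Cd8a were at 0 in every microglia library. Among hippocampi, 5 libraries (saline 7146 and 7152, young plasma 7147 and 7150, young platelet fraction 7148) stood apart on the first principal component.

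In microglia isolated by dissociation the transcripts of these ligands stood at very different levels, with Ccl4 and Ccl3 far above the rest. The part of the isolation in these levels was not tested. The 10 genes took 0.227% to 0.241% of all counted reads in saline microglia and 0.199% to 0.235% in PF4 microglia. Ccl3 and Ccl4 together made up 68.9% to 75.0% of those reads in the 7 libraries. Ranked by RPKM (RPM per kilobase of merged exons) among all genes with a length, Ccl4 stood at place 18 to 25 and Ccl3 at place 45 to 71, whereas Cxcl16 stood at 383 to 686 and Ccl6 at 969 to 2209.

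On that per-length scale the saline microglia held Ccl4 at an RPKM of 1752 ± 49.9 (SD, n = 3). Ccl3 followed at 714 ± 53.4 and Ccl12 at 170 ± 24.5. Ccl7 (83.4 ± 6.90) and Cxcl16 (80.5 ± 11.9) overlapped in their libraries and cannot be ordered. Ccl2 (53.1 ± 3.54) and Ccl6 (41.9 ± 4.61) came next, each without overlap with its neighbour in the order. Ccl9 (19.6 ± 1.53) and Cxcl10 (17.5 ± 8.26) overlapped, and Ccl22 was last, with 2 reads in 1 of the 3 libraries. Parts of this order rest on the lengths used. In RPM, saline Ccl6 (65.7 to 80.6) lay above Ccl2 (55.8 to 63.0), and Cxcl16 (204 to 274) above Ccl12 (79.9 to 106). In PF4 microglia Ccl4 and Ccl3 again stood first without overlap, the levels from Ccl12 through Cxcl16 to Ccl7 ran into each other, and so did those from Ccl2 through Ccl6 and Cxcl10 to Ccl9.

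**Figure D1:**
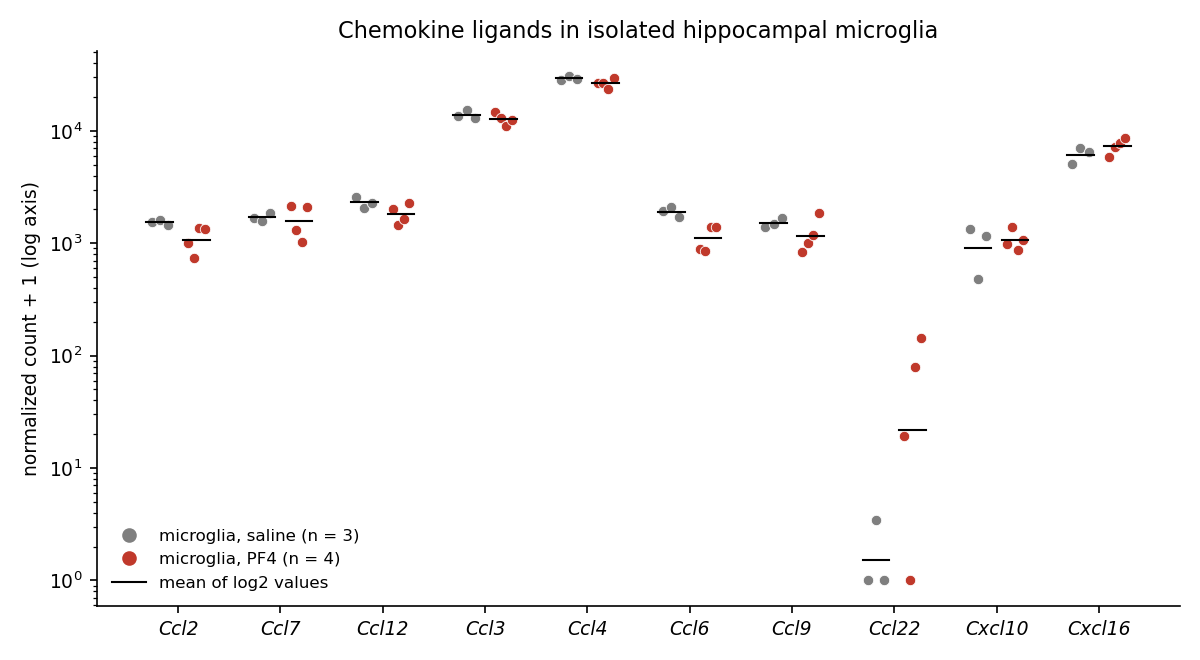
Normalized count plus 1 of each ligand (log axis) in the microglia libraries, 1 point a library, grey for saline (n = 3) and red for PF4 (n = 4), with a line at the mean of the log2 values. Ccl4 and Ccl3 sit highest in every library, the PF4 points of Ccl6 and Ccl2 all lie below the saline points, and Ccl22 is at 0 in 3 of the 7 libraries.

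The comparison of PF4 with saline asked whether circulating PF4 changed the transcripts of microglia in the aged hippocampus. For these ligands, 0 of 10 passed the threshold (limma, unadjusted P of 0.01), where 44 of all 11320 genes tested did (0.389%). At a P of 0.05, 1 of the 10 passed with limma, 0 with edgeR and 2 with DESeq2, against 3.45%, 2.27% and 3.74% of all genes. The 1 was Ccl6, lower under PF4, where limma had 1.09% of all genes lower. With DESeq2 it was Ccl6 and Ccl22, of which Ccl22 passed the filter on low values only through 3 PF4 libraries, so that 9 ligands were tested free of that choice. After Benjamini-Hochberg adjustment 0 ligands passed with any of these tools (adjusted p = 0.982 for each of the 10 with limma), and limma and edgeR called 0 of all genes, while DESeq2 called 41. Values were lower under PF4 for 7 ligands and higher for 3, with a median log2 difference of -0.14 (-0.15 without Ccl22). The median was 0.03 for all genes tested and -0.11 for the 14 microglia markers. In 2 of the 10, Ccl6 and Ccl2, the groups did not overlap, both lower under PF4. Among all genes tested, 2.23% had groups that did not overlap with PF4 lower, and 4.62% in either direction.

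Ccl6 had the smallest P. Its normalized counts were 1954, 2094 and 1704 in saline libraries 2, 3 and 4, and 896, 850, 1382 and 1406 in PF4 libraries 1 to 4. Every PF4 library lay below every saline library, and the PF4 libraries split into a lower and a higher pair. The log2 difference was -0.79 ± 0.33 (SE; limma, unadjusted P = 0.0388, adjusted p = 0.982). The two-sided exact permutation test gave p = 0.0571, where 3 libraries against 4 cannot go below 0.0286. Without the 3 libraries high in choroid plexus transcripts the difference was -0.76 (limma, unadjusted P = 0.11). Neutrophils and monocytes also transcribe Ccl6. Of the 9 monocyte and neutrophil markers tested 7 had lower values under PF4, with a median log2 difference of -1.77, 1 passed a P of 0.05, and none was at 0 in a whole group. PF4-1, the library highest in these markers, had the lowest Ccl6 but 1. The part of these cells in the Ccl6 values was not tested, and fewer cells of a type cannot be told apart from less RNA per cell in bulk libraries.

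Ccl9, the neighbour of Ccl6, had 1397, 1486 and 1686 normalized counts in saline microglia. The PF4 libraries held 839, 1006, 1192 and 1858. The lowest 3 PF4 libraries lay below all saline libraries and PF4-4 lay above them, so the groups overlapped. The log2 difference was -0.38 ± 0.36 (limma, unadjusted P = 0.323).

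The 3 ligands of CCR2 had lower means under PF4, none past the threshold. Ccl2, the main attractant of monocytes, stood at 1553, 1623 and 1447 normalized counts in saline microglia and at 1006, 734, 1376 and 1327 under PF4. The groups did not overlap, yet PF4-3 came close to the lowest saline library. The log2 difference of -0.51 ± 0.35 did not pass (limma, unadjusted P = 0.171, adjusted p = 0.982; exact permutation p = 0.114). Ccl12 held 2606, 2075 and 2291 in saline and 2028, 1458, 1632 and 2278 in PF4 libraries, with a difference of -0.35 ± 0.28 (unadjusted P = 0.241). Ccl7, which lies between Ccl2 and Ccl12 in the genome, was spread widely under PF4. Its values were 1683, 1577 and 1855 in saline, and 2127, 1303, 1022 and 2107 in PF4 libraries, 2 above and 2 below all saline libraries. The difference was -0.12 ± 0.35 (unadjusted P = 0.732), and 0.08 without PF4-3, so its direction rests on that library.

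Ccl3 and Ccl4 had slightly lower means under PF4, none past the threshold. Ccl4 held 28631, 30805 and 29083 normalized counts in saline microglia and 26552, 26689, 23806 and 29327 under PF4. Of the PF4 libraries, 3 lay below all saline libraries and PF4-4 lay among them. The log2 difference was -0.15 ± 0.14 (limma, unadjusted P = 0.311). Ccl3 held 13492, 15250 and 13111 in saline and 14601, 13057, 10950 and 12532 in PF4 libraries, with a difference of -0.13 ± 0.17 (unadjusted P = 0.45). PF4-3 was the lowest library for both genes.

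The remaining ligands had higher mean values under PF4, none past the threshold. Cxcl16 stood at 5024, 7112 and 6540 normalized counts in saline and at 5820, 7206, 7760 and 8696 in PF4 microglia, so that 3 PF4 libraries exceeded every saline library. Its log2 difference was 0.24 ± 0.21 (limma, unadjusted P = 0.28), and it was below 0 (-0.02) without the 3 libraries high in choroid plexus transcripts. Cxcl10, the interferon-inducible ligand, held 1344, 484 and 1168 in saline and 978, 1387, 878 and 1076 in PF4 libraries. Saline 3 was low and the remaining libraries overlapped, with a difference of 0.22 ± 0.45 (unadjusted P = 0.634). Without saline 3 it was -0.24, so its direction rests on that library.

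Ccl22 was the least evenly detected. It was at 0 in saline 2, saline 4 and PF4-2, at 2.47 normalized counts (2 reads) in saline 3, and at 18.3, 77.6 and 144 in PF4-1, PF4-3 and PF4-4 (24, 95 and 152 reads). High values were thus seen in PF4 libraries, and 1 of the 4 had none. Since saline libraries stood at 2.47 or less, Ccl22 entered the fit across genes only through the group where it was high, and the fitted log2 difference of 3.84 ± 2.18 also depends on the pseudocount. It is given as a description. The exact permutation test, which used no filter, gave p = 0.171, and the unadjusted P of the fits ran from 0.029 (limma without PF4-2) to 0.228 (limma without saline 2).

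**Figure D2:**
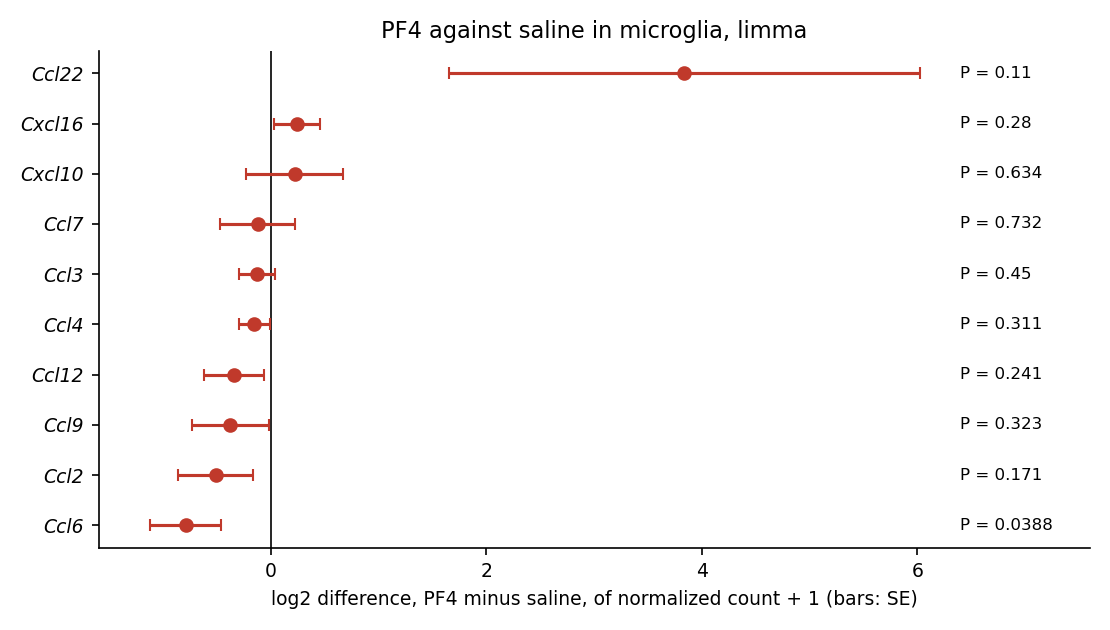
Log2 difference of PF4 minus saline microglia for each ligand, on the log2 scale of normalized count plus 1, with bars of 1 SE and the unadjusted limma P at the right. The points run from -0.79 (Ccl6) to 3.84 (Ccl22), and the bar of Ccl22 is the widest.

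Related genes were taken from lists of the pathway. Of 26 other chemokine ligands 13 were tested, and 0 passed in either direction, 7 with higher and 6 with lower values. Ccl8, a relative of Ccl2, had the smallest P of them at 524 ± 321 normalized counts in saline and 220 ± 163 under PF4 (limma, log2 difference -1.34, unadjusted P = 0.161). Cxcl12, a ligand known from stromal and vascular cells, was the most abundant at 4836 ± 6694 and 4390 ± 3635. Of 23 chemokine receptors 9 were tested and 0 passed. Cx3cr1, the fractalkine receptor of microglia, was the most abundant (166384 ± 31765 in saline and 154779 ± 28142 under PF4).

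Of the cytokine and NF-κB feedback genes 0 of 24 passed the threshold, and of the interferon response genes 0 of 23. Of the genes of the immediate early response and of dissociation stress it was 0 of 25. In the first and in the last of these lists 1 gene each passed a P of 0.05, where 3.45% of all genes did. In the first list it was Nfkbia, the feedback inhibitor of NF-κB, at 133446 ± 7252 normalized counts in saline and 106459 ± 11130 under PF4 (limma, log2 difference -0.33, unadjusted P = 0.048, adjusted p = 0.982). In the last list it was Fos, an AP-1 subunit, at 42030 ± 2199 and 32918 ± 2009 (-0.35, unadjusted P = 0.028). Median log2 differences were -0.07, 0.14 and -0.18 in the 3 lists, against 0.03 over all genes. Irf1 had the smallest P of the interferon list (-0.92, unadjusted P = 0.13). The 14 microglia markers also had 0 calls, with 13 values lower and a median of -0.11.

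Across the 7 microglia libraries, each ligand was set beside 11015 other genes with a mean normalized count of 50 or more (11016 for Ccl22), and the gene with the highest Pearson r on the log2 scale was taken. For Ccl6 it was Glrx (r = 0.975), for Ccl9 B3galnt1 (0.980), for Ccl2 Mib1 (0.997), for Ccl12 Dopey1 (0.986) and for Ccl7 Tln2 (0.970). For Ccl3 it was Src (0.976), for Ccl4 Mical3 (0.973), for Ccl22 Ahsa2 (0.981), for Cxcl10 Nudc (0.982) and for Cxcl16 Atp6v1a (0.978). No ligand was the nearest of another. With so few libraries and so many genes these are descriptions, and the libraries share group, depth and contaminating cell types.

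Neighbours in the genome were compared directly in 8 relations, 4 in each tissue, and 0 passed after adjustment. In microglia, the RPM of Ccl6 and Ccl9 had Pearson r = 0.714 (n = 7, permutation p = 0.0764, adjusted p = 0.24) and Spearman rho = 0.5 (permutation p = 0.267, adjusted p = 0.707). Without the 2 libraries farthest from the median of Ccl6, r was -0.10, so the relation rests on those libraries. Ccl3 and Ccl4 had r = 0.709 (permutation p = 0.0712, adjusted p = 0.24) and rho = 0.429 (permutation p = 0.354, adjusted p = 0.707), with r = 0.579 without the outer 2 libraries. Ccl2 had r = 0.646 with Ccl12 (permutation p = 0.12, adjusted p = 0.24; rho = 0.607, permutation p = 0.167, adjusted p = 0.667), which fell to 0.36 without the outer 2. With its closer neighbour Ccl7 it had r = 0.0425 (permutation p = 0.93, adjusted p = 0.93; rho = -0.107, permutation p = 0.84, adjusted p = 0.841).

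In 17 hippocampi, Ccl6 and Ccl9 had r = 0.42 (permutation p = 0.0921, adjusted p = 0.24) and rho = 0.505 (permutation p = 0.0416, adjusted p = 0.333), and r = 0.274 without the outer 2 libraries. The other 3 hippocampal relations had r between -0.0881 and 0.118, with adjusted permutation p of 0.93 and rho between -0.123 and 0.11, all on a few reads per library. Centred on the group means, none of the 8 relations passed either.

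The whole hippocampus held the same ligands in traces. All 10 together had 44 to 102 reads in a hippocampal library, against 46468 to 82471 in a microglia library. Their order also differed. Ccl3 and Ccl4 made up 1.18% to 13.6% of the ligand reads in hippocampus and 68.9% or more in microglia, whereas Ccl6 and Cxcl16 made up 55.7% to 77.6% in hippocampus and 12.1% to 18.3% in microglia. Between the tissues no library overlapped in either share. The 2 experiments used other mice and separately normalized tables, and isolation of the cells, mice and library run cannot be told apart, so no test was made.

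**Figure D3:**
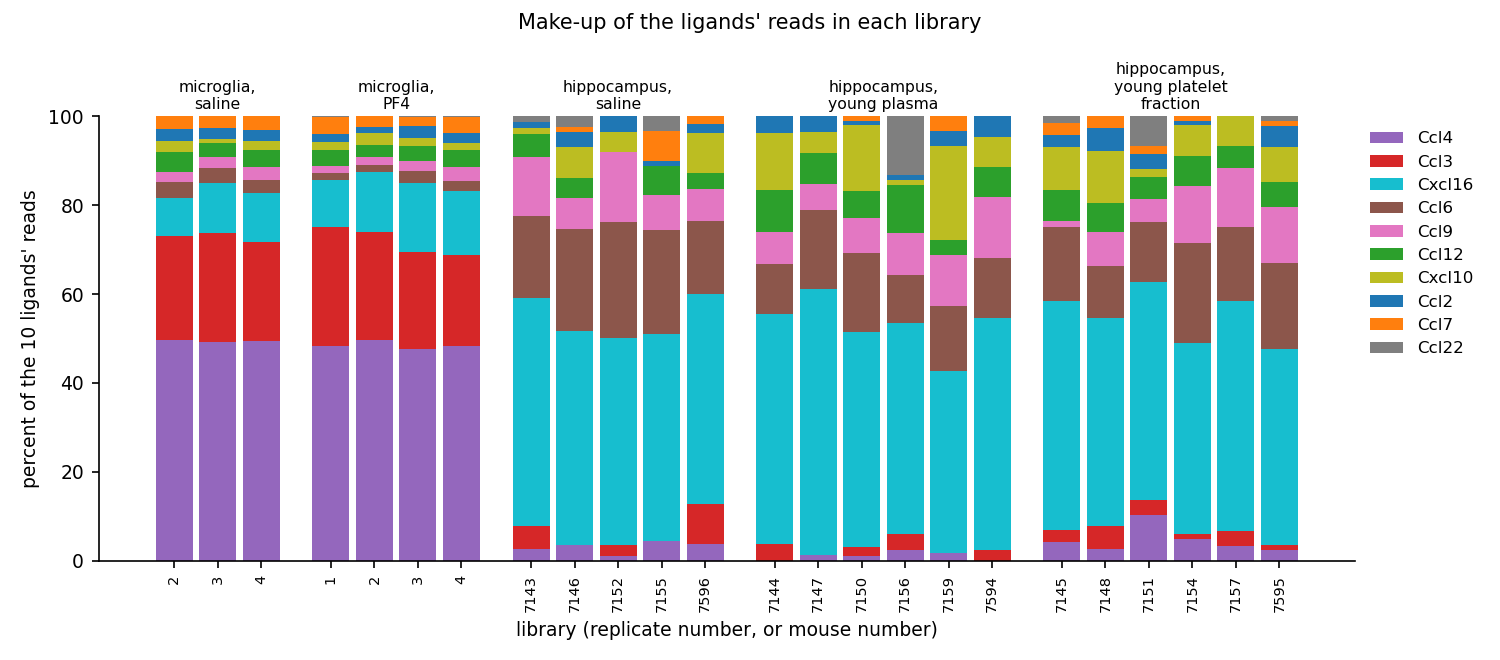
Percent of the reads of the 10 ligands that each ligand took, 1 bar a library, for 7 microglia and 17 hippocampal libraries named by replicate or mouse number. Ccl4 (purple) and Ccl3 (red) fill 68.9% to 75.0% of the bars in microglia and at most 13.6% in hippocampus, where Cxcl16 and Ccl6 fill most.

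In saline mice the ratio of microglia to hippocampus was highest for Ccl4 and Ccl3. Ccl4 stood at 1121 to 1186 RPM in the 3 saline microglia libraries and at 0.116 to 0.616 in the 5 saline hippocampi (12 reads in all). Ccl3 stood at 505 to 587 and at 0 to 0.814 (11 reads). The summed microglia markers were 44.2-fold higher in RPM in microglia. Counted per microglia marker read, Ccl4 was still 88.5-fold higher (95% exact Poisson interval 50.7 to 171, for counting error only) and Ccl3 45.2-fold (25.3 to 90.6). Among 16608 genes with more than 3 hippocampal reads they stood at places 2 and 3, behind Tnf, the cytokine that induces many chemokines, at 311-fold, and 9 genes in all exceeded 10-fold.

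The CCR2 ligands came next. Per marker read, Ccl7 was 7.83-fold higher in microglia (3.97 to 18.1), Ccl2 6.11-fold (3.22 to 13.4) and Ccl12 5.23-fold (3.22 to 9.14), on 8, 9 and 16 hippocampal reads. Cxcl10 was 2.33-fold higher (1.43 to 4.07). Ccl9 at 1.37-fold (1.01 to 1.91), Cxcl16 at 1.19-fold (1.036 to 1.385) and Ccl6 at 0.778-fold (0.631 to 0.972) lay close to the microglia markers themselves, whose own values ran from 0.366 to 1.65. Ccl22 had 2 reads in microglia and 6 in hippocampus, too few for a ratio. The median over the other 9 ligands was 5.23-fold per marker read and 231-fold in RPM, and 3.78-fold and 167-fold with the ratio of Ccl22 counted in.

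Other genes were set beside the ligands by the same measure. The median was 2.21-fold for the cytokine and NF-κB feedback genes, with Il1b at 36.8-fold and Il1a at 23.7-fold. For the immediate early and dissociation stress genes the median was 1.08-fold, with Atf3 at 39.2-fold, and for the interferon response genes 0.117-fold. The median was 0.00929-fold over all genes. The 16 other chemokine ligands with more than 3 hippocampal reads had a median of 0.0143-fold. Of the cells that CD11b beads can also enrich, border macrophage markers had a median of 0.41-fold and monocyte and neutrophil markers 2.06-fold, and their part in the values of the ligands was not tested.

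**Figure D4:**
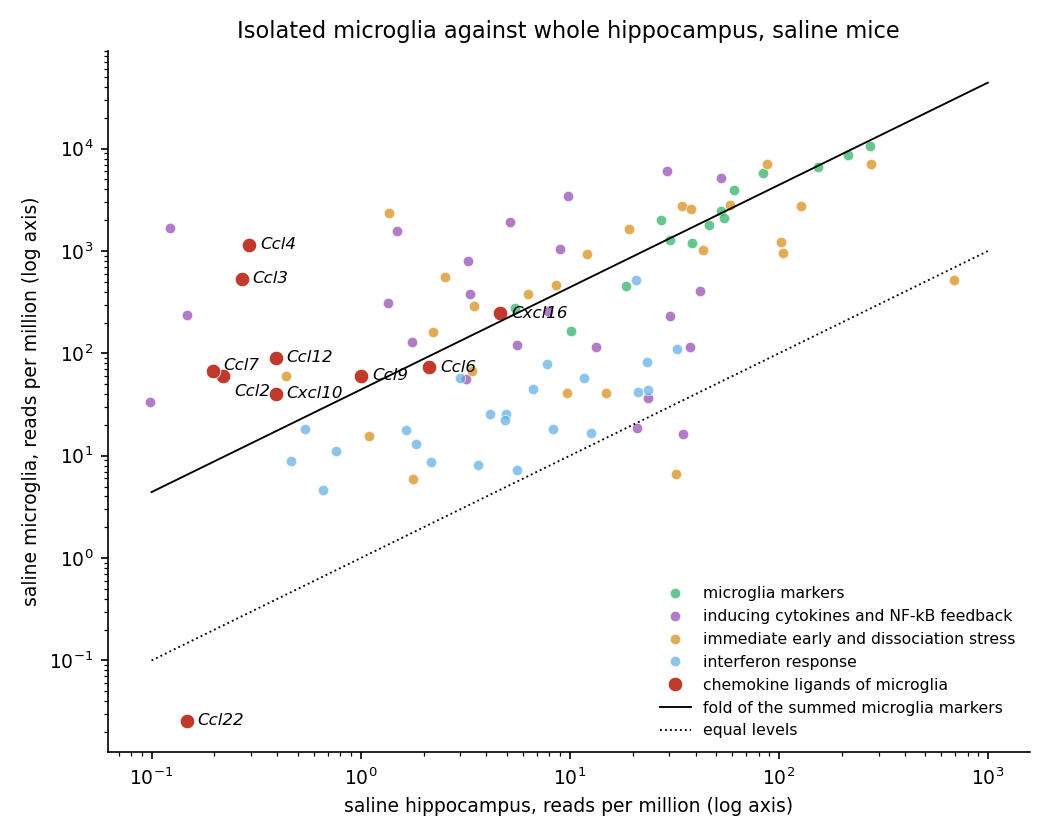
Pooled RPM of genes from the lists in saline microglia (vertical) against saline hippocampus (horizontal), both log axes, 1 point a gene with more than 3 hippocampal reads. The solid line is the 44.2-fold enrichment of the summed microglia markers and the dotted line marks equal levels, with Ccl4 and Ccl3 farthest above the solid line among the ligands, Cxcl16, Ccl9 and Ccl6 close to it and Ccl22 (2 microglia reads) below both.

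In the whole hippocampus the comparisons asked what young plasma and young platelets changed in the aged tissue. Only Ccl6 and Cxcl16 were abundant enough to enter the fit across genes. In each of the 3 hippocampal comparisons 0 of these 2 passed the threshold (an unadjusted P of 0.05 with limma, edgeR or DESeq2). Over all genes limma called 3.35% for young plasma against saline, 3.87% for the young platelet fraction against saline and 1.9% for the platelet fraction against plasma. The shares were 3.48%, 3.87% and 2.04% with edgeR and 3.71%, 4.13% and 2.02% with DESeq2, and after adjustment limma and edgeR called 0 of them in each comparison, while DESeq2 called 0, 11 and 0. No ligand had groups without overlap in any of them, where 0.191%, 0.257% and 0.0876% of the genes tested did. The 2 comparisons with saline share their control mice.

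Ccl6 held 11.4, 13.8, 20.3, 23.4 and 10.9 normalized counts in saline hippocampi (mice 7143, 7146, 7152, 7155 and 7596). Under young plasma it ran from 6.35 over a median of 9.22 to 18.0, and under the platelet fraction from 8.19 over 11.7 to 25.2. All groups overlapped, and 4 of the 6 young plasma mice lay below every saline mouse. The log2 difference was -0.54 ± 0.34 for young plasma (limma, unadjusted P = 0.132, adjusted p = 1) and -0.23 ± 0.32 for the platelet fraction (unadjusted P = 0.487, adjusted p = 0.998), and 0.31 ± 0.34 between the treatments (unadjusted P = 0.379). In saline mice these values rest on 9 to 23 reads.

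Cxcl16 had the most reads of the ligands in every hippocampus, although per length it overlapped the next ligand in each group. It held 31.7, 29.1, 36.1, 46.7 and 31.4 normalized counts in saline mice, 23.5 to 56.6 with a median of 36.9 under young plasma and 29.7 to 48.1 with a median of 37.7 under the platelet fraction. The young plasma mice spread beyond the saline mice on both sides. Log2 differences were 0.06 ± 0.25 (limma, unadjusted P = 0.817), 0.11 ± 0.18 (unadjusted P = 0.572) and, between the treatments, 0.05 ± 0.23 (unadjusted P = 0.846).

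The other 8 ligands were under the filter in hippocampus and were compared one by one with two-sided exact permutation tests. Of 40 such tests over all ligands and comparisons, 1 had p under 0.05 and 0 passed after adjustment (smallest adjusted p = 0.346). That 1 was Ccl4 in the platelet fraction against plasma. It had 3, 2, 6, 5, 2 and 2 reads in platelet fraction mice (7145, 7148, 7151, 7154, 7157 and 7595) and 0, 1, 1, 2, 1 and 0 in young plasma mice (7144, 7147, 7150, 7156, 7159 and 7594). The groups touched at 2 reads, near the floor of 3 reads that a library of 0 allows. Means were 3.49 and 0.88 normalized counts (log2 difference 1.28, exact permutation p = 0.00866). Saline mice lay between, with 2, 3, 1, 4 and 2 reads.

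Cxcl10 had the highest difference from saline among these 8, and it was not past a test. Its reads were 1, 6, 4, 0 and 5 in saline mice, 1 to 15 with a median of 5.5 under young plasma and 1 to 9 with a median of 7 under the platelet fraction. High libraries were young plasma 7150 and 7159 with 15 and 13 reads. The log2 difference was 1.09 for young plasma and 1.02 for the platelet fraction (exact permutation p = 0.141 for both, adjusted p = 0.476). Of 19 interferon response genes tested in these tissues, 4 had higher values past the threshold under young plasma and 2 under the platelet fraction, with medians of 0.25 and 0.14. Over all genes limma had 251 of 13594 higher past the threshold under young plasma. Under the platelet fraction 328 of 13603 were higher and 199 lower past the threshold. The 4 oligodendrocyte markers were past it, higher, in both, and the microglia markers had medians of -0.06 and -0.13, with 2 of 14 past it, lower, under the platelet fraction. Their part in these values was not tested.

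Ccl9 was read in every hippocampus, with 4 to 14 reads in saline, 4 to 8 in young plasma and 1 to 13 in platelet fraction mice. Ccl12 had 0 to 6, 2 to 9 and 3 to 7 reads in these groups, and its log2 difference from saline was 0.84 for young plasma and 0.77 for the platelet fraction (exact permutation p = 0.141 and 0.113). Ccl2 had 0 to 4 reads in any hippocampus and Ccl3 0 to 5, mostly at or under 3 reads, and neither had a permutation p under 0.05. Ccl7 and Ccl22 were at 0 in 7 and 10 of the 17 hippocampi. Permutation p ran from 0.0563 to 0.848 over the ligands for young plasma against saline and from 0.113 to 0.913 for the platelet fraction, where the design allows 0.00216.

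**Figure D5:**
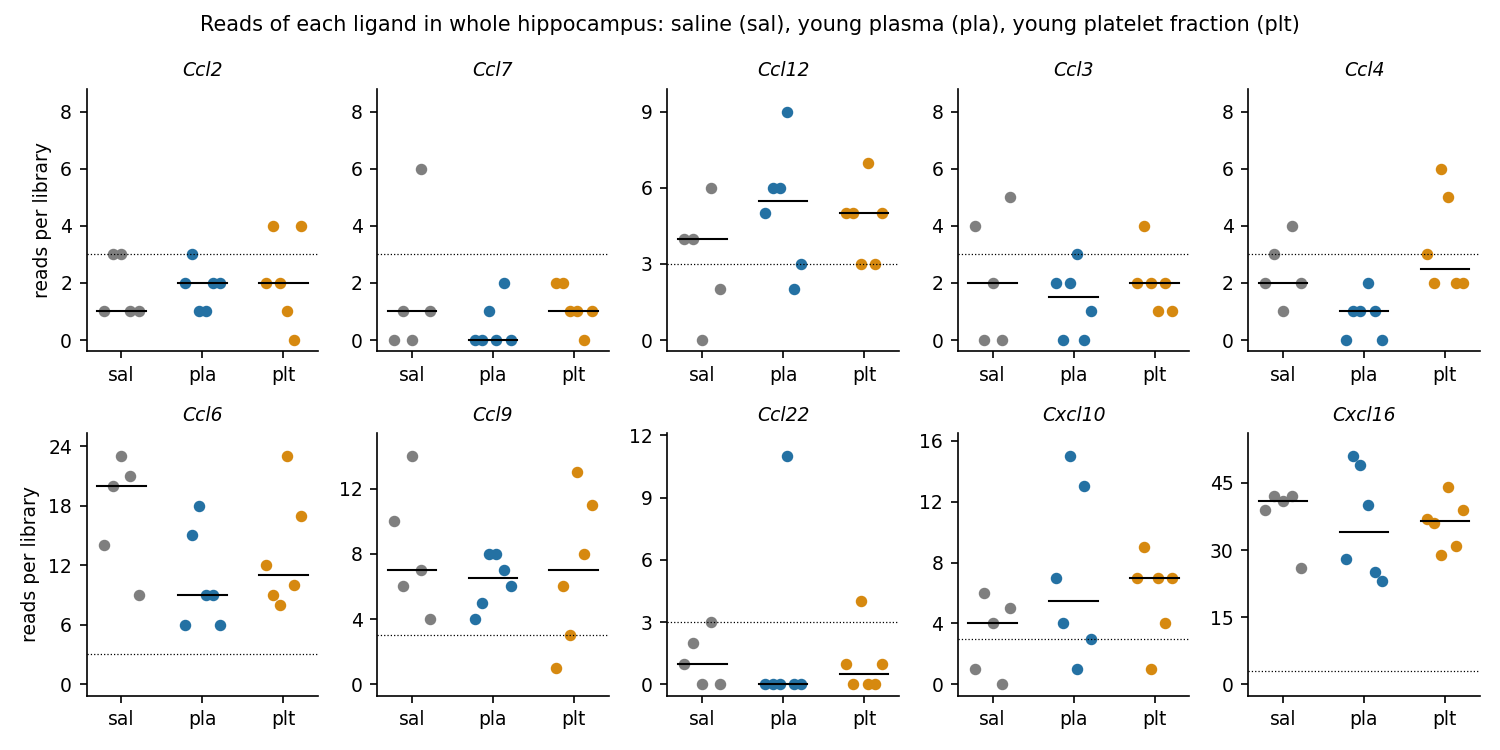
Recovered reads of each ligand per hippocampal library, 1 point a mouse, in saline (sal, n = 5), young plasma (pla, n = 6) and young platelet fraction (plt, n = 6) groups, with a line at the median and a dotted line at 3 reads, the floor that a count of 0 allows. All groups overlap, Ccl6 and Cxcl16 lie above the floor in every mouse, and most points of Ccl2, Ccl3, Ccl4, Ccl7 and Ccl22 lie at or below it.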

How the data were processed

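Bulk RNA was sequenced from 17 hippocampi and 7 microglia libraries, grouped by their deposited labels. Per the labels and the methods of the study, the authors used STAR for alignment to mm10, RSEM for counts per gene and DESeq2 for normalization. They deposited 3 tables, whose signal per library is a normalized count (reads of a gene over the library's size factor). The tables also hold the authors' fold changes and p-values, which were not used. The methods name a modified Smart-Seq2 protocol and the labels a strand-specific poly(A) kit, and neither source settles which was used.

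Values were whole multiples of 1 step within 0.01 of a read, and whole reads were recovered for 100% of values. Since the copies carry no molecular identifiers, intervals cover counting error only. Log2(normalized count + 1) was fitted over whole tables with limma 3.58.1 (trend, R 4.3.3), with genes kept at 10 or more in at least 3 microglia or 5 hippocampal libraries, and so fold changes understate low genes. Thresholds were an unadjusted P of 0.01 in microglia and 0.05 in hippocampus, after the study's methods, with Benjamini-Hochberg adjusted p beside them. Platelet and plasma libraries were put on one scale through their shared saline libraries (factor 0.995). The fits were tested on simulated data. For single genes, group means were compared in exact two-sided permutation tests (scipy 1.17.1), and correlations by permutation tests.

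Results were also computed on the recovered reads with DESeq2 1.42.0 and with edgeR 4.0.16, with TMM scaling or library totals, without a filter or with one at 50, with a pseudocount of 0.5 or 5, with all hippocampal groups in one fit, a replicate block and leaving out each library. Leaving out the libraries that stood apart was added after seeing the data. The members and gene lists were chosen with earlier results of these data known. The rule for named genes took every member, its most alike gene in microglia, and the 3 genes of smallest P and 2 most abundant of each list. Lengths came from GENCODE M21 (23376 of 24411 genes) and promoters from RefSeq.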

Additional observations from a re-analysis of the deposited data

Results flagged for a closer look

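In 3 of the 40 groups of 4 to 6 libraries examined, 1 library lay farther from the others than Dixon's 95% limit. For normal values chance gives about 1 in 20, a rate that does not hold for counts of a few reads with many at 0. Ccl7 in saline hippocampus stood at 6.67 normalized counts (6 reads) in mouse 7155 and at 0 to 1.21 in the other saline mice. Ccl22 stood at 12.2 (11 reads) in young plasma mouse 7156 and at 0 in the other young plasma mice, and at 4.10 (4 reads) in young platelet fraction mouse 7151 against 0 to 1.04 in the others. All 3 were hippocampal values of ligands below the filter, on 11 reads or fewer.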

How the results depend on the processing

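No ligand passed the threshold in microglia under any alternative, the replicate block included (0 of 10, or 0 of 9 where Ccl22 fell under the filter). In hippocampus 1 passed without the filter on low values, Ccl4, for young plasma against saline (1 of 10, limma, unadjusted P = 0.0393) and for the platelet fraction against plasma (1 of 10, limma, unadjusted P = 0.00258). With each library left out in turn the count stayed at 0 to 0 in all 4 comparisons. The number of permutation tests with p under 0.05 was 1 of 40, 2 with scaling to library totals and 1 to 3 with each library left out, the 3 without saline mouse 7155. The median of the ligands in microglia over hippocampus went from 167-fold in RPM to 3.78-fold per microglia marker read (231 and 5.23 without Ccl22, which had 2 microglia reads). The 286 values of single ligands under the alternatives, for all 10 in microglia and for Ccl6 and Cxcl16 in hippocampus, changed no call. The sign turned in 1 of 17 for Ccl7, Cxcl10 and Cxcl16 in microglia and in 4 of 20 and 6 of 21 for Cxcl16 in hippocampus (young plasma against saline, and between the treatments), none of them past a test. Ccl6 in microglia ran from -0.91 to -0.67 (unadjusted P from 0.0325 to 0.11) and with the replicate block stood at -0.69 (unadjusted P = 0.0957). Same-numbered microglia libraries deviated together with r of 0.136, 0.0586 and 0.0321. Differently numbered ones had r from -0.200 to 0.197, a range that holds all of these, so the numbers were not taken as pairs. Over all genes the microglia calls were 44 with limma, 179 with DESeq2, 29 with the replicate block, 8 without the 3 libraries high in choroid plexus transcripts and 22 to 123 with 1 library left out (123 without saline 4, 71 without PF4-3, 25 without saline 3, 22 without PF4-4). For platelet fraction against plasma they were 260, 473 without the filter and 206 to 441 with 1 library left out, and against saline 297 to 617 for young plasma and 344 to 870 for the platelet fraction. The cause was not tested. Depth limits the hippocampal values, since 8 of the 10 ligands had a mean under 10 reads.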
